A study of Homo sapiens with 21 samples.

Results

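Transcripts of 44 genes that build the centromere and kinetochore or run the spindle checkpoint were followed across 7 groups of HCT-116 cells, a human colorectal carcinoma line. The 44 genes were taken from a fixed list of names, and its rule uses no measured value. The list was, however, chosen with earlier results of these data known. Every name matched 1 identifier among the 65065 genes of the deposited count table, and all 44 passed the filter on low counts that left 19556 genes for testing. By role they were 4 genes of CENP-A and its deposition, 15 of the inner kinetochore, 10 of the outer kinetochore, 3 of the SKA complex, 4 of the corona, 6 of the spindle checkpoint and 2 shugoshins.

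DMEM with serum depleted of exosomes was the medium in all groups. Cells were given extracellular vesicles (EVs), membrane particles shed by cells, isolated by the GlyExo-Capture method from the serum of patients with hepatocellular carcinoma (HCC+) or of healthy people (HCC-). Each kind of EV was given at 1.2, 0.24 or 0.048 mg/mL, and the blank cells received none. Poly(A) RNA was sequenced in 3 libraries a group, 21 in all. How many donors gave serum, how long the cells were exposed and whether libraries of 1 group stem from different cultures is not given in the sources used here, so p-values measure only the spread between these libraries.

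The centromere is the stretch of each chromosome that carries nucleosomes with CENP-A, a variant of histone H3. The inner kinetochore, also called the constitutive centromere-associated network (CCAN), sits on it, and the outer kinetochore (KNL1, MIS12 and NDC80 complexes) grips spindle microtubules. As long as a kinetochore is unattached, the spindle checkpoint holds back the anaphase-promoting complex, and shugoshins guard the cohesion of sister centromeres until anaphase. Many of these genes are known to be transcribed mainly in late S phase, G2 and mitosis, through promoter elements read by E2F, DREAM and MuvB complexes. In bulk RNA fewer cycling cells and less of these RNAs per cell cannot be told apart.

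A promoter of RefSeq (GRCh38.p14), 250 bases before to 50 bases after the annotated start, was found for 37 of the 44 genes. Elements of 3 kinds were searched on both strands: the cell cycle genes homology region (CHR, spelled TTTGAA or TTCGAA), an E2F site (TTTGGCGC, TTTCCCGC, TTTGCCGC or TTTCGCGC) and the CCAAT box (CCAAT). The latter CHR spelling is its own reverse complement and was counted once at a position. The spellings share no overlap in the sequences printed here. A CHR was found in 19 of the 37 promoters (51.4%, against 16.6% of all 27305 promoters of the table), an E2F site in 4 (10.8% against 3.33%) and a CCAAT box in 23 (62.2% against 35.7%). Of the 21 CHR matches, 18 began no more than 100 bases before the start or lay after it. These matches describe letters in a window and show no binding. The 250 bases before the start are printed for the 2 genes that were lowest and the 2 that were highest in log2 fold change with HCC- EVs at 1.2 mg/mL among those with a promoter, with matches in capitals. CENPU (chr4:184734097-184734346, minus strand) has an E2F site read on the opposite strand and a CCAAT box, CENPQ (chr6:49463120-49463369, plus strand) has a CCAAT box, PMF1 (chr1:156212757-156213006, plus strand) has 2 CCAAT boxes here, and MAD1L1 (chr7:2232946-2233195, minus strand) has no match.
CENPU: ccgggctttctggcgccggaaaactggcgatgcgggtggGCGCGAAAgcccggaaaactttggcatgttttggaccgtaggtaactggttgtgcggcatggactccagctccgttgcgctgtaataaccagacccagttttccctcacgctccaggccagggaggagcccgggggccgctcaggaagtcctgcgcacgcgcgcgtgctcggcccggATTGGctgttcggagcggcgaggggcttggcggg
CENPQ: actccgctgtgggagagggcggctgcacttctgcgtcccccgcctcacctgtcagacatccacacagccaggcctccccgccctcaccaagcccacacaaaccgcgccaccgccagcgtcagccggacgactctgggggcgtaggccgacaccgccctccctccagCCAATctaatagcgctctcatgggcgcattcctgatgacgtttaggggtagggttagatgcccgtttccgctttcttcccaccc
PMF1: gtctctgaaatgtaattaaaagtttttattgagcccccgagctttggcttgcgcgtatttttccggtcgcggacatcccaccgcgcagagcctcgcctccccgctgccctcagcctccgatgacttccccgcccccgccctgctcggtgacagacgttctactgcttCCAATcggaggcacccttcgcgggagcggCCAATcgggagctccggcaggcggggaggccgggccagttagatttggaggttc
MAD1L1: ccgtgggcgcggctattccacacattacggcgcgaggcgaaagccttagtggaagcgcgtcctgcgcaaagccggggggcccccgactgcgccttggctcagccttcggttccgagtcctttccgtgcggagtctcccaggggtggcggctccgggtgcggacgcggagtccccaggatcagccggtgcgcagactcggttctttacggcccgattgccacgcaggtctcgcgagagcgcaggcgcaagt
The promoters of CENPA (chr2:26785806-26786055, plus strand) and BUB1B (chr15:40160819-40161068, plus strand) were added after the search to show a CHR close to the start. In CENPA it runs from base -18 to -13, beside an E2F site and 2 CCAAT boxes farther upstream. In BUB1B it runs from -23 to -18.
CENPA: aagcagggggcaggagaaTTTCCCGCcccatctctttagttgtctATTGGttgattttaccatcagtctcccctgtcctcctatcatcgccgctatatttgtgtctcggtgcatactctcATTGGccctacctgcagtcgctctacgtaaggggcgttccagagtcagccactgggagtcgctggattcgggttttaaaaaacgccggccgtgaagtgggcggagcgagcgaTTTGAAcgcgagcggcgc
BUB1B: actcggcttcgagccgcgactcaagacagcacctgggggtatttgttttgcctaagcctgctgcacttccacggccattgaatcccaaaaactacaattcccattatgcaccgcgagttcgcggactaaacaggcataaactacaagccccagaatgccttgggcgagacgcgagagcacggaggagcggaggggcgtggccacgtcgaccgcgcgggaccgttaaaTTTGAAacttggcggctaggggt
The 19 genes with a CHR had a median log2 fold change of -0.56 with HCC+ EVs and -1.09 with HCC- EVs at 1.2 mg/mL against the blank. For the 18 with a promoter and no CHR the medians were -0.26 and -1.04. The other elements split the genes the other way with HCC+ EVs. The 4 genes with an E2F site had medians of -0.35 and -0.84, and the 33 without -0.55 and -1.09. The 23 with a CCAAT box had -0.46 and -1.09, and the 14 without -0.57 and -1.04. For HCC+ against HCC- EVs at 1.2 mg/mL the median difference was 0.54 with a CHR and 0.79 without. It was 0.53 with and 0.71 without an E2F site, and 0.71 with and 0.44 without a CCAAT box. No test was made of these medians.

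Total counts ran from 31.22 to 64.01 M a library. The leading principal component, with 63.58% of the variance, separated all 6 libraries at 1.2 mg/mL from the other 15. The 8 epithelial markers summed to between 3289 and 4951 CPM (counts over the library's TMM-scaled total) in every library. With HCC- EVs at 1.2 mg/mL their sum, 3289 to 3561 CPM, lay below the 3676 to 4476 of the blank, while with HCC+ EVs at that dose, at 3903 to 4152, it lay within that range. Sums of other markers were low, and some were higher where the members were lower: 8 leukocyte markers summed to 1.35 to 1.62 CPM in blank cells, 3.36 to 4.7 under HCC+ EVs and 5.29 to 7.12 under HCC- EVs at 1.2 mg/mL, and 4 of the 8 passed the filter. S100A8 and S100A9 were at 0 in every library. The 6 endothelial and fibroblast markers summed to 14.8 to 18.3, 24.3 to 34.1 and 35.8 to 41.3 CPM in the same order, with 3 of 6 past the filter. The nuclear-retained RNAs MALAT1 and NEAT1 summed to 222 to 287, 342 to 403 and 413 to 502 CPM. The 6 liver markers summed to 1.86 to 3.76 CPM over all libraries with APOB at 0, and the 8 platelet and erythroid markers to 3.77 to 5.95 with PPBP and PF4 at 0. Their part in the results was not tested.

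In the blank, levels per exon length (RPKM) ran from CENPX, a histone-fold protein of the CCAN, at 69.8 ± 2.9 (SD, n = 3) to MAD1L1 at 0.0358 ± 0.0166. ZWINT, which links KNL1 to the corona, followed at 55.6 ± 0.307, and then the checkpoint genes BUB3 at 39.6 ± 1.06, BUB1B at 34 ± 2.45, BUB1 at 33.3 ± 1.59 and MAD2L1 at 32.7 ± 4.46. The last 3 of these differ by less than their spread. Genes of the CCAN stood at both ends: CENPK had 2.77 ± 0.37 and CENPP 0.867 ± 0.0591 RPKM. MAD1L1, whose protein recruits MAD2L1 to unattached kinetochores, had only 5 to 36 counts in a library. Of its exon bases 41.55% are shared with a same-strand gene model that has 0 counts, so reads there may not have been assigned, and its level is uncertain.

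**Figure D1:**
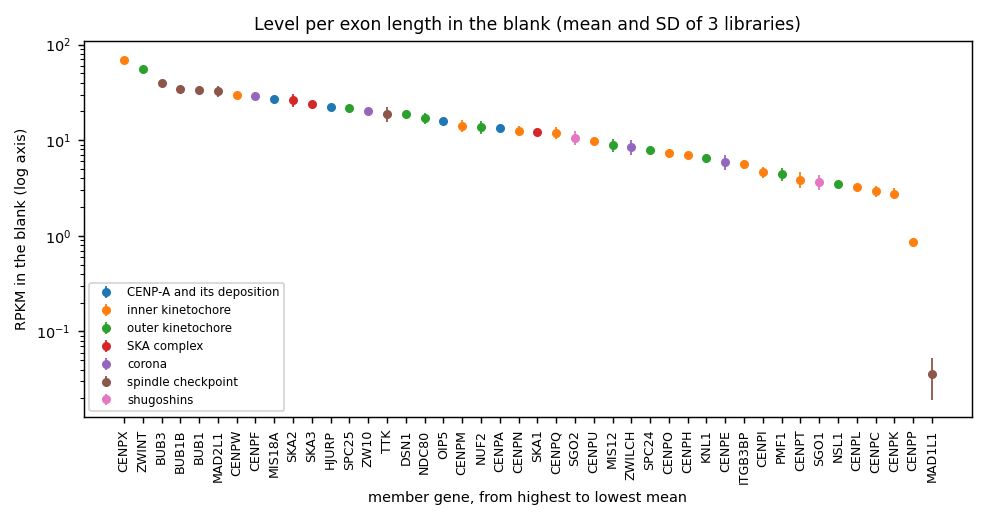
RPKM of the 44 genes in the blank on a log axis, mean and SD of 3 libraries, ordered by mean and coloured by role. Spindle checkpoint genes other than MAD1L1 lie among the 15 highest, while CCAN genes run from 69.8 down to 0.867 RPKM.

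At 1.2 mg/mL most of these transcripts were lower than in the blank with both kinds of EV, and further below it with HCC- EVs. The summed level of the 44 genes was 2982, 2622 and 2918 CPM in the blank libraries, 1787, 2220 and 2158 with HCC+ EVs and 1492, 1397 and 1348 with HCC- EVs. The 3 groups did not overlap in this sum, and their means were 2841 ± 192, 2055 ± 234 and 1412 ± 73.4 CPM. Of the 44 genes 36 fell and 0 rose with HCC+ EVs at an adjusted p under 0.05 in edgeR's quasi-likelihood test, where 17.4% of all genes tested fell and 15.6% rose. With HCC- EVs 41 fell and 0 rose, where 28.5% of all genes fell and 24.8% rose. The median log2 fold change was -0.48 with HCC+ EVs, beside 0.01 over all genes, and -1.08 with HCC- EVs, beside 0.05. By libraries, 31 genes were lower in every HCC+ library than in every blank library, where 19.6% of all genes were. With HCC- EVs 40 were, where 28% of all genes were. With libraries scaled by total count, the median of all genes was 0.13 and 0.33 and the members' medians were -0.37 and -0.79. That scaling left 28 genes lower and 2 higher with HCC+ EVs, and 39 lower and 3 higher with HCC- EVs, while over all genes the split went from 3398 lower and 3046 higher to 2069 and 4657 with HCC+ EVs, and from 5574 and 4844 to 3097 and 8128 with HCC- EVs.

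**Figure D2:**
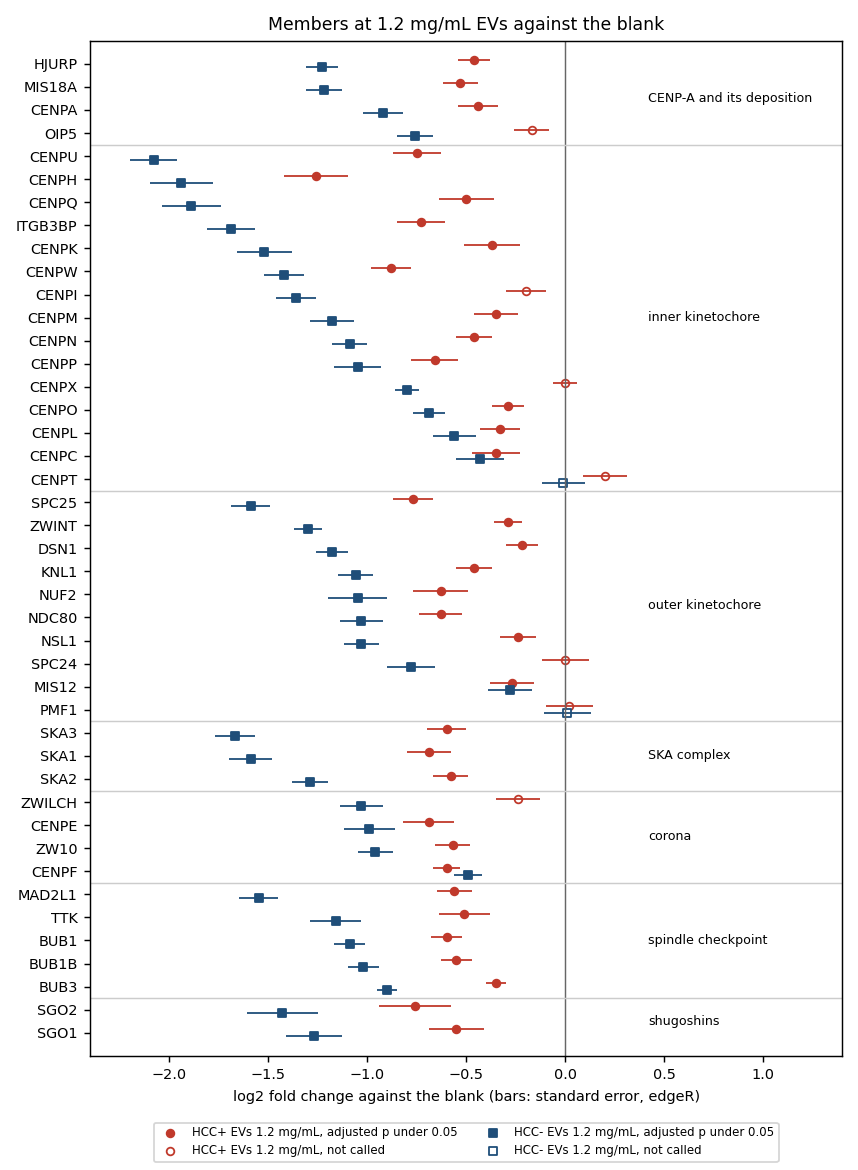
Log2 fold change against the blank with its standard error for 43 genes (MAD1L1 is left out for its low counts), grouped by role, with HCC+ EVs in red and HCC- EVs in blue, both at 1.2 mg/mL. Filled points passed an adjusted p under 0.05. Blue points lie left of red ones for most genes, from -2.08 for CENPU to 0.01 for PMF1, and CENPF is reversed in order.

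All 4 genes of CENP-A and its deposition fell with HCC- EVs, with a median of -1.07, and 3 of 4 fell with HCC+ EVs, with a median of -0.45. HJURP, the chaperone that delivers CENP-A, gave 85.7, 84.8 and 87.6 CPM in the blank, 51.9, 65.6 and 69.8 with HCC+ EVs and 36.4, 38.5 and 35.3 with HCC- EVs. The 3 groups did not overlap. Its log2 fold change was -0.46 ± 0.08 (SE, adjusted p 1.92e-05) with HCC+ and -1.23 ± 0.08 (2.35e-14) with HCC- EVs. OIP5, also known as MIS18 beta, which licenses the centromere for new CENP-A, changed least in this class. It gave 19.3, 18.9 and 18.4 CPM in the blank, 14.9, 16.8 and 18.5 with HCC+ EVs and 11, 11.2 and 11.3 with HCC- EVs. The HCC+ libraries overlapped the blank (-0.17 ± 0.09, adjusted p 0.13), and the HCC- libraries lay below both (-0.76 ± 0.09, 1.11e-08). Antisense OIP5-AS1 covers 38.72% of the exon bases of OIP5, and no strand setting is given. MIS18A, the partner of OIP5, fell by 0.53 and 1.22 on the log2 scale and CENPA itself by 0.44 and 0.92.

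The CCAN held both the deepest fall with HCC- EVs, that of CENPU, and CENPT, which had no call with either kind of EV. With HCC- EVs 14 of its 15 genes fell, with a median of -1.18, and with HCC+ EVs 12 of 15, with a median of -0.37. CENPU (GRCh38 chr4:184694085-184734130), which recruits Polo-like kinase to the kinetochore, gave 33.6, 31.4 and 36.6 CPM in the blank, 16, 23.9 and 20.7 with HCC+ EVs and 9.32, 7.02 and 7.65 with HCC- EVs. No library of 1 group reached into another, and the HCC- mean was 23.6% of that of the blank. The log2 fold changes were -0.75 ± 0.12 (adjusted p 7.70e-06) and -2.08 ± 0.12 (4.72e-15). Antisense PRIMPOL shares 14.93% of its exon bases.

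CENPT (chr16:67828157-67847811), which ties centromeric DNA directly to the NDC80 complex, gave 20.2, 26.6 and 18.9 CPM in the blank, 25.5, 24.4 and 25.7 with HCC+ EVs and 19.2, 25.4 and 21 with HCC- EVs. The 3 groups overlapped. Its log2 fold changes were 0.20 ± 0.11 (adjusted p 0.153) and -0.01 ± 0.11 (0.966), and scaling to the total count turned these to 0.32 and 0.28, both called. Antisense genes overlap 20.18% of its exon bases.

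The CENPH, CENPI, CENPK and CENPM proteins form 1 subcomplex of the CCAN, yet their transcripts gave unlike values with HCC+ EVs. CENPH had the largest fall of all 44 genes there: 15.6, 15.9 and 15.2 CPM in the blank, 5.56, 7.89 and 6.09 with HCC+ EVs and 4.87, 3.16 and 4.09 with HCC- EVs. All 3 groups were apart, with log2 fold changes of -1.26 ± 0.16 (adjusted p 2.85e-07) and -1.94 ± 0.16 (1.27e-11). CENPI gave 22.1, 16.9 and 21 CPM in the blank, 15.2, 18.4 and 18.7 with HCC+ EVs and 8, 8.03 and 7.37 with HCC- EVs. Its HCC+ libraries overlapped the blank (-0.20 ± 0.10, adjusted p 0.132) and its HCC- libraries lay far below (-1.36 ± 0.10, 1.49e-12). CENPK and CENPM fell by 0.37 and 0.35 on the log2 scale with HCC+ EVs and by 1.52 and 1.18 with HCC- EVs. The CENPK call with HCC+ EVs was lost under 8 of 14 alternatives, down to -0.14: without replicate 1 or 3 of that group or of the blank, with total count scaling, with GC and length trends removed (also with the replicate block), and with only the groups compared. That of CENPM was lost without HCC+ replicate 1 or blank replicate 2 and with total count scaling. Differences between genes of the subcomplex were not tested.

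Partners of CENPU in the CENP-O, P, Q, U and R subcomplex also fell. CENPQ, a close partner of CENPU, fell by 1.89 on the log2 scale with HCC- EVs and by 0.50 with HCC+ EVs, the latter call being lost without HCC+ replicate 1 and, at its smallest -0.20, with GC and length trends removed (with or without the replicate block). ITGB3BP, which encodes CENP-R, fell by 1.69 and 0.73, CENPP by 1.05 and 0.66, and CENPO by 0.69 and 0.29, the latter call being lost with total count scaling (-0.17). CENPO and CENPP share 31.44% and 43.21% of their exon bases with antisense genes. CENPN, which reads the CENP-A nucleosome, fell by 1.09 and 0.46, and its partner CENPL by 0.56 and 0.33. Antisense genes share 22.79% of the exon bases of CENPN. CENPL lost its call with HCC+ EVs without HCC+ replicate 3 or blank replicate 1 and with total count scaling. CENPC, the scaffold that reaches from CENP-A to the MIS12 complex, fell by 0.43 with HCC- EVs and by 0.35 with HCC+ EVs. The HCC+ libraries of CENPC overlapped the blank, and that call was lost without HCC+ replicate 1 or blank replicate 1 or 3, with total count scaling and with only the groups compared. The CENPC call with HCC- EVs was lost with total count scaling and with GC and length trends removed (with or without the replicate block), down to -0.13. Of the histone-fold genes, CENPW fell by 1.42 and 0.88, while CENPX gave 103, 112 and 105 CPM in the blank, 112, 102 and 106 with HCC+ EVs and 57.8, 65.5 and 60.7 with HCC- EVs. CENPX was thus level with the blank in HCC+ libraries (0.00 ± 0.06, adjusted p 0.974) and below it in every HCC- library (-0.80 ± 0.06, 3.57e-12).

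In the outer kinetochore 9 of 10 genes fell with HCC- EVs, with a median of -1.04, and 8 of 10 with HCC+ EVs, with a median of -0.28. SPC25, a subunit of the NDC80 complex, gave 39.8, 37.8 and 42.5 CPM in the blank, 19.2, 26.7 and 24.4 with HCC+ EVs and 14.9, 12.9 and 12 with HCC- EVs. Its groups were apart, with log2 fold changes of -0.77 ± 0.10 (adjusted p 2.47e-07) and -1.59 ± 0.10 (1.48e-14). SPC24 forms a dimer with SPC25 but gave 20.1, 24.1 and 22.8 CPM in the blank, 20.2, 23.5 and 23.6 with HCC+ EVs and 13, 15.7 and 10.4 with HCC- EVs. Its HCC+ libraries matched the range of the blank (0.00 ± 0.12, adjusted p 0.988), and the HCC- libraries were lower (-0.78 ± 0.12, 1.13e-06). NDC80 and NUF2, the microtubule-binding dimer, both fell by 0.63 on the log2 scale with HCC+ EVs and by 1.03 and 1.05 with HCC- EVs.

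KNL1, the docking platform of the BUB proteins, fell by 0.46 with HCC+ and 1.06 with HCC- EVs, and ZWINT by 0.29 and 1.30. Within the MIS12 complex the 4 transcripts differed. DSN1 and NSL1 fell by 1.18 and 1.03 with HCC- EVs, and by 0.22 and 0.24 with HCC+ EVs, calls that each were lost without HCC+ replicate 1 or blank replicate 1 or 3, with total count scaling and with only the groups compared. The NSL1 call was also lost without HCC+ replicate 3, and that of DSN1 with no filter and with GC and length trends removed (with or without the replicate block), down to -0.04. PMF1 gave 10.7, 13.1 and 9.91 CPM in the blank, 12.1, 10.6 and 11.5 with HCC+ EVs and 10.7, 11.9 and 11.5 with HCC- EVs. All 3 groups of PMF1 overlapped, with log2 fold changes of 0.02 ± 0.12 (adjusted p 0.904) and 0.01 ± 0.12 (0.927), and 23.29% of its exon bases belong also to the readthrough gene PMF1-BGLAP. MIS12 gave 32, 23.5 and 28.8 CPM in the blank, 21, 25.5 and 22.9 with HCC+ EVs and 22.7, 20.1 and 26.5 with HCC- EVs, which overlap. Its calls (-0.27 ± 0.11, adjusted p 0.0468, and -0.28 ± 0.11, adjusted p 0.0293) were lost without blank replicate 1 or 3, without HCC+ replicate 1 or 3 for the first, and without HCC- replicate 1 or 2 for the second. Both were also lost with total count scaling, with GC and length trends removed and with only the groups compared, and the first with RLE factors. With HCC- EVs MIS12 stood at 0.01 when libraries were scaled by total count and at 0.10 with trends in GC content and length removed.

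All 3 genes of the SKA complex, which strengthens the grip on microtubules, fell with both kinds of EV, with medians of -0.60 and -1.59. SKA3 gave 75.5, 63.1 and 74.3 CPM in the blank, 37, 53.9 and 49.6 with HCC+ EVs and 24, 22.4 and 20.4 with HCC- EVs. SKA2 gave 95.8, 71 and 87.1 CPM in the blank, 49.8, 64.2 and 55.2 with HCC+ EVs and 37.9, 32.6 and 33.2 with HCC- EVs. For both genes the 3 groups kept apart. SKA3 changed by -0.60 ± 0.10 (adjusted p 1.16e-05) and -1.67 ± 0.10 (5.23e-15) and SKA2 by -0.58 ± 0.09 (7.93e-06) and -1.29 ± 0.09 (4.13e-13). SKA1 fell by 0.69 and 1.59.

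The corona is the outermost layer that forms on unattached kinetochores. Its 4 genes all fell with HCC- EVs, with a median of -0.97, and 3 of 4 with HCC+ EVs, with a median of -0.59. ZWILCH, a subunit of the RZZ complex with ZW10, gave 47.5, 33.8 and 42.8 CPM in the blank, 33.6, 38.3 and 32.7 with HCC+ EVs and 22.8, 19.4 and 18.6 with HCC- EVs. Its HCC+ libraries overlapped the blank (-0.24 ± 0.11, adjusted p 0.0734), and its HCC- libraries lay below both (-1.03 ± 0.11, 1.26e-09). Antisense genes, RPL4 among them, share 10.86% of the exon bases of ZWILCH. CENPF, a large protein of the corona, gave 362, 307 and 352 CPM in the blank, 190, 247 and 237 with HCC+ EVs and 254, 233 and 241 with HCC- EVs. Both EV groups lay below the blank and overlapped each other, and with TMM scaling CENPF was the 1 gene of the class, and of the 44, with a lower fitted level with HCC+ than with HCC- EVs. Its log2 fold changes were -0.60 ± 0.07 (adjusted p 1.62e-07) and -0.49 ± 0.07 (1.11e-06). CENPE, the kinesin that carries chromosomes to the spindle equator, fell by 0.69 and 0.99, and ZW10 by 0.57 and 0.96.

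Among the checkpoint genes 5 of 6 fell with each kind of EV, and the medians were -0.53 with HCC+ and -1.05 with HCC- EVs. MAD2L1, the subunit that binds CDC20 when kinetochores are unattached, gave 193, 152 and 196 CPM in the blank, 102, 134 and 131 with HCC+ EVs and 71.4, 58.2 and 54.7 with HCC- EVs. Its groups were apart, with log2 fold changes of -0.56 ± 0.09 (adjusted p 2.14e-05) and -1.55 ± 0.10 (1.61e-14). BUB3, the adaptor that carries BUB1 and BUB1B to KNL1, had the smallest change of the class: 333, 317 and 322 CPM in the blank, 236, 254 and 271 with HCC+ EVs and 173, 171 and 178 with HCC- EVs. These groups too were apart, at -0.35 ± 0.05 (6.91e-06) and -0.90 ± 0.05 (1.10e-14). The kinase BUB1 fell by 0.60 and 1.09, BUB1B, which encodes BUBR1, by 0.55 and 1.02, and TTK, the kinase that starts checkpoint signalling, by 0.51 and 1.16. MAD1L1 went against the class without a call: 0.305, 0.123 and 0.349 CPM in the blank, 0.558, 0.688 and 0.46 with HCC+ EVs and 0.407, 0.527 and 0.542 with HCC- EVs. Both EV groups lay above the blank, with log2 fold changes of 1.14 ± 0.49 (adjusted p 0.0733) and 0.93 ± 0.49 (0.111), from very few counts.

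Both shugoshins fell. SGO2 gave 78.2, 55.8 and 67.5 CPM in the blank, 27.5, 47.8 and 43.2 with HCC+ EVs and 31.6, 20.9 and 22 with HCC- EVs. The EV groups overlapped each other and lay below the blank, with log2 fold changes of -0.76 ± 0.18 (adjusted p 0.0025) and -1.43 ± 0.18 (2.16e-06). SGO1 gave 15.9, 11.3 and 14 CPM in the blank, 7.26, 10 and 10.6 with HCC+ EVs and 5.8, 5.93 and 5.23 with HCC- EVs. Here the 3 groups were apart, at -0.55 ± 0.14 (adjusted p 0.00255) and -1.27 ± 0.14 (7.11e-09).

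**Figure D3:**
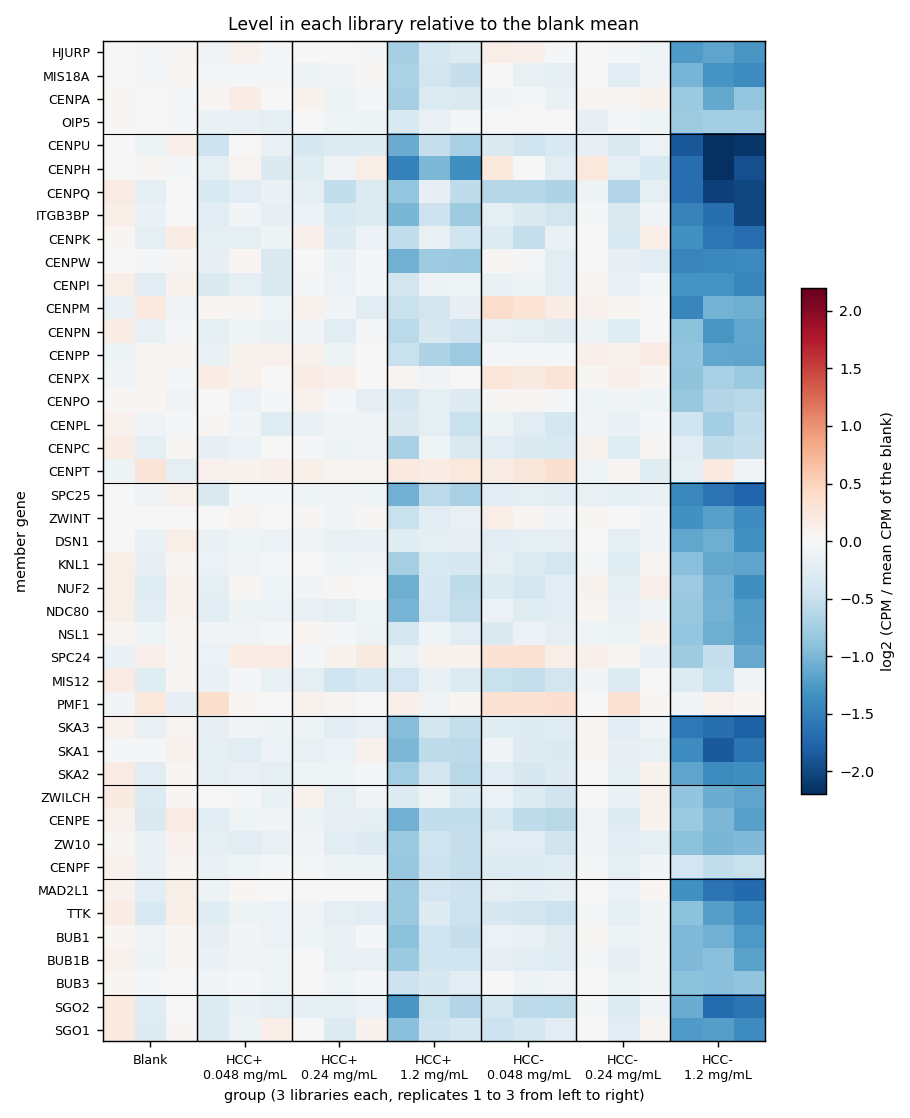
Log2 of each library's CPM over the mean CPM of the blank for 43 genes (MAD1L1 left out) in 21 libraries, with groups in columns and roles in blocks of rows. Blue fills the HCC- block at 1.2 mg/mL for most genes, the HCC+ block at 1.2 mg/mL is paler with replicate 1 darkest, and CENPT and PMF1 stay near white.

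Within some groups 1 library was the lowest for most of these genes. Replicate 1 of HCC+ EVs at 1.2 mg/mL was the lowest of its group for 37 of 44 genes, and replicate 2 of the blank for 33 of 44. That HCC+ library scored -25.35 on the leading principal component, and replicates 2 and 3 scored -14.81 and -16.1. Over the genes tested, blank replicate 2 differed from replicates 1 and 3 by a chi-square over degrees of freedom of 27.02 and 23.75, against 7.242 between those. Shares of all genes for these orders are not reported here, so they cannot be read as a trait of the members. At 0.24 mg/mL replicate 2 was the lowest for 32 of 44 genes with HCC- EVs and for 23 with HCC+ EVs. At 0.048 mg/mL replicate 3 was the lowest for 25 genes with HCC- EVs, and replicate 1 for 23 with HCC+ EVs. With HCC- EVs at 1.2 mg/mL replicate 3 was the lowest for 22. Without replicate 1 of HCC+ EVs at 1.2 mg/mL 29 genes fell against the blank, with a median of -0.36. The share of all genes in that fit is not reported here. Across 43 genes without MAD1L1, the log2 fold change had a Pearson r of 0.52 with GC content for HCC+ EVs and 0.43 for HCC- EVs, genes richer in GC having fallen less. These genes share libraries and the r is a description. With trends in GC content and length removed from each library, 32 genes fell with HCC+ and 39 with HCC- EVs, with medians of -0.37 and -0.82, where 19% and 24.1% of all genes fell.

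Set directly against each other at 1.2 mg/mL, the 2 kinds of EV differed in most of these transcripts. In edgeR's test 36 of 44 genes were higher with HCC+ than with HCC- EVs and 0 were lower, where 22.6% of all genes were higher and 12.7% lower. The median log2 difference was 0.66, beside 0.01 over all genes. The split over all genes turned with the scaling, from 4411 higher and 2490 lower to 2342 and 4572 with total count scaling and 3599 and 4206 with GC and length trends removed, with medians of -0.16 and -0.09. The members then had 33 higher and 1 lower (median 0.49), and 34 higher and 2 lower (median 0.46). By libraries, 33 genes were higher in every HCC+ than in every HCC- library, where 26% of all genes were. For 25 genes every HCC- library lay below every HCC+ library and these below every blank library, where 9.71% of all genes had this order. CENPQ had the largest difference, 1.39 ± 0.15 (adjusted p 8.36e-09), from 11.6, 18.5 and 14.2 CPM with HCC+ and 6.58, 5.05 and 5.25 with HCC- EVs. CENPU followed with 1.33 ± 0.12 (4.80e-10) and CENPI with 1.16 ± 0.10 (2.39e-10). For all 3 the libraries of the 2 groups were apart.

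By role, 4 of 4 genes of CENP-A and its deposition were higher with HCC+ EVs, with a median of 0.64, 12 of 15 of the CCAN (0.68), 8 of 10 of the outer kinetochore (0.70), 3 of 3 of the SKA complex (0.90), 2 of 4 of the corona (0.34), 5 of 6 of the checkpoint (0.51) and 2 of 2 shugoshins (0.69). The 8 genes without a call were CENPC (0.07), CENPL (0.23), CENPT (0.21), PMF1 (0.01), MIS12 (0.00), CENPE (0.29), CENPF (-0.11) and MAD1L1 (0.21). CENPF passed as lower with HCC+ EVs, at -0.28, when libraries were scaled to the total count, and at -0.23 with GC and length trends removed, where MIS12 also passed as lower, at -0.20. The calls of NDC80 (0.39) and NUF2 (0.42), whose libraries overlapped, were lost without HCC+ replicate 2 or HCC- replicate 3, and that of NUF2 also without HCC+ replicate 3 or HCC- replicate 2. Both were also lost with total count scaling, with GC and length trends removed and with only the groups compared, down to 0.17. CENPP (0.39) lost its call without HCC+ replicate 1 or HCC- replicate 2 or 3, with total count scaling and with only the groups compared, and SGO2 under the last of these.

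At 0.24 mg/mL no member passed the test. In edgeR's test 0 of 44 genes were called against the blank with either kind of EV, where 0.00511% of all genes rose and 0% fell with HCC+ EVs and 0% moved either way with HCC- EVs. At an unadjusted p under 0.05 there were 5 with HCC+ and 1 with HCC- EVs, where 6.1% and 4.63% of all genes were, and DESeq2 called 0 in both. The medians were -0.06 and -0.07, and the summed level was 2696 ± 70.7 CPM with HCC+ and 2710 ± 131 with HCC- EVs. HCC+ EVs at 0.048 mg/mL also gave 0 calls, where 0% of all genes passed (3 at an unadjusted p under 0.05, where 4.83% of all genes were, and 0 with DESeq2), with a median of -0.10 and a summed level of 2679 ± 72.9 CPM.

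HCC- EVs at 0.048 mg/mL gave 11 lower and 2 higher genes, where 8.16% of all genes were lower and 8.28% higher, with a median of -0.22. The summed level was 2604, 2504 and 2463 CPM, each below the lowest blank library, and 21 genes had every library below the blank, where 13.9% of all genes did. CENPQ gave 13.6, 13.6 and 13.1 CPM, against 23.7, 18 and 21.2 in the blank (-0.64 ± 0.14, adjusted p 0.00822). CENPE gave 44.6, 38.4 and 36.9 CPM, against 60, 44.9 and 63.8 (-0.49 ± 0.13, 0.0156), and MIS12 20.1, 19.6 and 21.2, against 32, 23.5 and 28.8 (-0.46 ± 0.11, 0.009). In these 3 genes no library of the EV group reached the blank. The 2 higher genes were CENPX (0.25 ± 0.06, adjusted p 0.0113) and PMF1 (0.34 ± 0.12, 0.0438). None of the 13 calls was left without blank replicate 1, without blank replicate 3, or with GC and length trends removed, where CENPX stood at -0.05. With those trends removed 0.194% of all genes were lower and 0.343% higher, so calls were lost over all genes too. Without blank replicate 2 the counts were 24 lower and 4 higher. Shares of all genes with a blank library left out are not reported here. A wider gain or loss of calls in those fits therefore cannot be told from one in the members. Between HCC+ and HCC- EVs no member passed edgeR's test with TMM scaling at 0.24 mg/mL (0 calls, where 0% of all genes passed in each direction, median -0.02) or at 0.048 mg/mL (0 calls, where 1.08% of all genes were higher and 2.46% lower, median 0.10). At an unadjusted p under 0.05 there were 0 and 9, where 2.36% and 23.4% of all genes were. DESeq2 called 0 at 0.24 mg/mL. At 0.048 mg/mL DESeq2 called 3 higher (5.71% of all genes it tested were) and 2 lower (13.1%). A fit of only the groups compared called 10 higher (9.22% of all genes) and 2 lower (12.6%). No filter gave 3 higher (1.68%), and total count scaling and the replicate block 1 higher each (2.02% and 1.98%).

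Against the lower doses of the same source, the highest dose stood out again. With HCC+ EVs 29 of 44 genes were lower at 1.2 than at 0.24 mg/mL (15.5% of all genes were), led by CENPH (-1.20), CENPW (-0.82) and SPC25 (-0.68). Against 0.048 mg/mL 29 were lower too (14.9% of all genes), led by CENPH (-1.11), CENPW (-0.74) and CENPP (-0.66). With HCC- EVs 40 were lower at 1.2 than at 0.24 mg/mL (28% of all genes), led by CENPU (-1.87), CENPH (-1.85) and CENPQ (-1.59). Against 0.048 mg/mL 41 were (28% of all genes), led by CENPH (-1.95), CENPU (-1.72) and CENPM (-1.46). None of the 44 passed as higher in these 4 comparisons. Every HCC- library at 1.2 mg/mL lay below all 15 libraries of the blank and lower doses for 39 genes, where 21.9% of all genes did, and every HCC+ library did for 21, where 11.5% of all genes did. CENPU had group means of 33.9 ± 2.62 CPM in the blank, 29.6 ± 4.47, 27.4 ± 0.683 and 20.2 ± 4.01 with rising dose of HCC+ EVs, and 26.4 ± 1.26, 29.4 ± 1.94 and 8 ± 1.19 with rising dose of HCC- EVs. The step lay between 0.24 and 1.2 mg/mL for HCC- EVs.

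**Figure D4:**
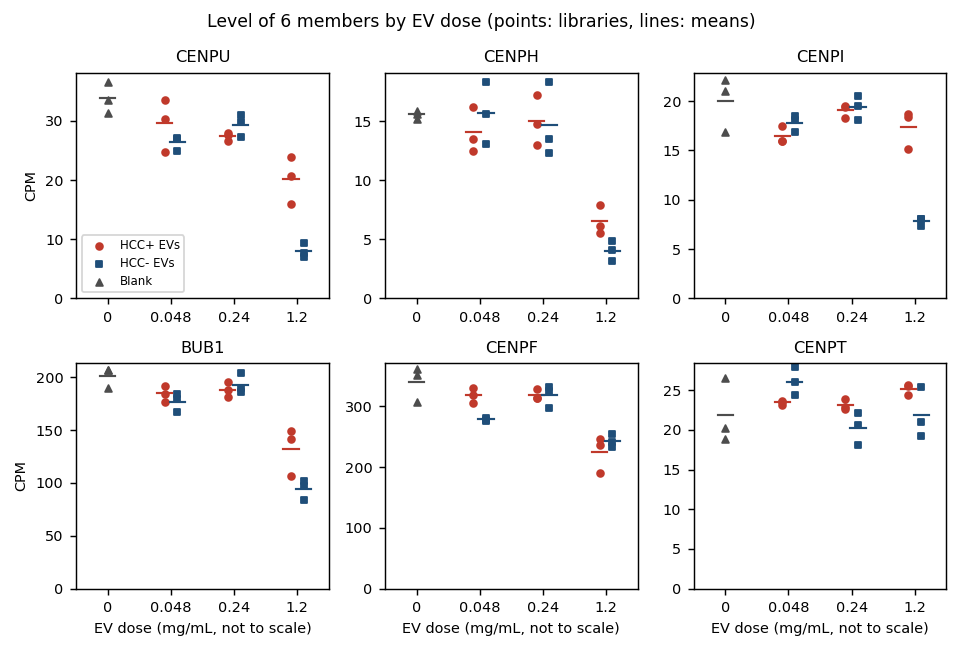
CPM of 6 genes by EV dose, not to scale, with 1 point a library (HCC+ EVs red circles, HCC- EVs blue squares, blank grey triangles) and lines at group means. CENPU, CENPH and BUB1 are lower with both kinds of EV at 1.2 mg/mL, CENPI lies clear of the blank at 1.2 mg/mL with HCC- EVs and overlaps it with HCC+ EVs, CENPF is alike with both, and CENPT overlaps throughout.

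Averaged over the 3 doses, 31 of 44 genes were higher with HCC+ than with HCC- EVs and 0 lower, where 11.5% of all genes were higher and 3.98% lower, with a median of 0.23. With total count scaling 23 members were higher, where over all genes 1173 were higher and 1569 lower. CENPQ (0.58), CENPU (0.47) and CENPK (0.41) led. The difference between the 2 kinds of EV changed with dose. In the test of that change between 1.2 and 0.048 mg/mL, 28 genes were higher and 1 lower, where 16.7% of all genes were higher and 7.63% lower, with a median of 0.58. Over all genes the split of 3257 higher and 1493 lower turned to 1631 and 3219 with total count scaling, where 23 members were higher and 2 lower, and to 2864 and 2891 with GC and length trends removed, where 28 were higher and 2 lower. CENPI (1.27 ± 0.14, adjusted p 8.83e-08), CENPU (1.17 ± 0.17, 4.15e-06) and CENPM (1.11 ± 0.16, 2.77e-06) led, and CENPF (-0.30 ± 0.10, 0.029) went the other way. The CENPF call was lost without any 1 of 6 of the 12 libraries, among them HCC+ replicate 1 at 1.2 mg/mL.

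Other genes of the pathway were taken from lists of the same kind, and their counts at 1.2 mg/mL stand beside the 17.4% of all genes that fell and 15.6% that rose with HCC+ EVs, and the 28.5% and 24.8% with HCC- EVs. Of the chromosomal passenger complex, which corrects faulty attachments, 3 of 4 fell with HCC+ EVs and 4 of 4 with HCC- EVs, the kinase AURKB by 0.51 and 1.23 on the log2 scale and CDCA8, which encodes borealin, by 0.55 and 1.03. Of 13 tested among 14 other centromere and kinetochore proteins, 10 fell with each kind of EV. TRIP13, the ATPase that disassembles checkpoint complexes, fell by 0.78 and 1.63, and KNTC1, the ROD subunit of the RZZ complex, by 1.52 with HCC- EVs. CENPB, which binds centromeric DNA repeats, stood at 0.08 ± 0.07 and 0.12 ± 0.07 without a call. Of 19 genes of the anaphase-promoting complex and its activators 13 fell with HCC+ EVs, with a median of -0.38, and 15 fell and 1 rose with HCC- EVs, with a median of -0.51. Its activator CDC20 fell by 0.72 and 0.85 and its inhibitor FBXO5 by 1.63 with HCC- EVs. Of 14 genes of cohesin and separase 8 and 11 fell, with medians of -0.19 and -0.56, and ESCO2, which acetylates cohesin in S phase, fell by 1.99 with HCC- EVs.

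Most genes of the nearest cell cycle lists also fell, beside the same shares of all genes. Of 25 mitotic kinases, cyclins, kinesins and condensins 23 fell with HCC+ EVs (median -0.52) and 25 with HCC- EVs (median -1.10). Of 25 DNA replication genes 24 and 25 fell, with medians of -0.43 and -1.54. Between the 2 kinds of EV at 1.2 mg/mL the replication genes had a median difference of 1.04 with 25 of 25 higher with HCC+ EVs, and the mitotic genes one of 0.60 with 22 higher and 1 lower. The kinetochore genes, with 0.66, lay by the mitotic genes, and no test of these medians was made. Among 19 regulators, 7 fell and 2 rose with HCC+ EVs, where 17.4% of all genes fell and 15.6% rose. With HCC- EVs 14 fell and 2 rose, where 28.5% of all genes fell and 24.8% rose. No test of these shares was made. E2F1, a factor that drives the entry into S phase, rose by 0.28 ± 0.09 with HCC+ EVs (adjusted p 0.0143) and fell by 1.23 ± 0.09 with HCC- EVs (1.03e-12). MYBL2, the MYB protein that joins MuvB on promoters with a CHR, fell by 0.37 and 1.78, E2F8 by 0.45 and 1.88, and CDKN1A, the inhibitor p21, rose by 0.59 with HCC+ and 0.39 with HCC- EVs.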

How the data were processed

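Poly(A) RNA of 21 libraries in 7 groups of 3 was measured. Per the submitters' processing notes, the tools named are cutadapt 3.4, HISAT2 2.2.1 and featureCounts 2.0.1, and the build is GRCh38. How strand and multimapped reads were treated, and with which annotation, is not stated there. The values deposited by the authors are raw counts of reads per gene, with no normalization, for 65065 Ensembl genes with exon coordinates. Antisense and overlapping genes can therefore share or lose reads. Total counts of 31.22 to 64.01 M a library set the precision of genes with few counts.

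Symbols were matched for 58472 identifiers. A single model with 7 group means was fitted in edgeR 4.0.16 (R 4.3.3) with TMM factors, filterByExpr and robust dispersions. The quasi-likelihood test had 14 residual degrees of freedom, was 2-sided, and was adjusted by Benjamini-Hochberg within each of 15 comparisons over 19556 genes, with a threshold of 0.05. A gene is said to rise or fall where it passed, and standard errors come from the F statistic. Comparisons with the blank share its libraries. CPM and RPKM used TMM-scaled totals and the file's exon lengths. The scripts were tested on simulated data.

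The members and lists were chosen with earlier results of these data known. The rule gave, in each role, the genes with the largest and the smallest absolute log2 fold change with HCC- EVs at 1.2 mg/mL in full. Elsewhere it named the 3 largest calls each way, or all of 10 or fewer, and genes that moved against their class. CENPH, CENPI, CENPX, SPC24 and MIS12 were given in full after their values were seen. Alternatives were RLE factors, total count scaling, no filter, the groups compared alone, DESeq2 1.42.0, a replicate block, removal of each library's GC and length trends (GENCODE v29 transcripts), and each library left out. Libraries of a group differed beyond sampling noise in every pair, so none was a copy of another. This cannot tell separate cultures from separate preparations of 1 culture. Figures were drawn with matplotlib 3.10.9.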

Additional observations from a re-analysis of the deposited data

Results flagged for a closer look

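For 29 genes the difference between HCC+ and HCC- EVs was not the same at 1.2 as at 0.048 mg/mL, by a test of that change in edgeR's quasi-likelihood model at an adjusted p under 0.05 (7.63% of all genes passed as lower and 16.7% as higher). On the log2 scale the change was 1.27 for CENPI, 1.17 for CENPU, 1.11 for CENPM, 1.02 for CENPK, 0.99 for CENPQ, 0.96 for CENPX, 0.84 for CENPH and 0.82 for ITGB3BP. Other genes of the inner kinetochore had 0.60 (CENPW), 0.57 (CENPN) and 0.44 (CENPO). In the outer kinetochore it was 1.04 for ZWINT, 0.97 for SPC24, 0.86 for DSN1, 0.72 for SPC25, 0.65 for NSL1 and 0.38 for KNL1. The SKA genes had 0.93 (SKA3), 0.87 (SKA1) and 0.61 (SKA2). CENP-A deposition gave 0.85 for HJURP, 0.75 for OIP5 and 0.60 for MIS18A, and the checkpoint 0.80 for MAD2L1, 0.54 for BUB3, 0.42 for BUB1 and 0.34 for BUB1B. In the corona ZWILCH had 0.56, and CENPF had -0.30, the only negative value among these 29. These values also hold the differences at 0.048 mg/mL. There HCC- EVs gave 11 lower and 2 higher members against the blank, where 8.16% and 8.28% of all genes were, and 0 of either with GC and length trends removed. How far that shaped the values was not tested. The counts under other scalings and the limits of the CENPF call are given above.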

How the results depend on the processing

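Over 344 pairs of a gene and a comparison 5362 alternative values were computed, of which 4955 kept direction and side of the threshold, 336 lost a call, 18 gained one, 10 changed sign with a call before or after, and 43 changed sign with no call at either. These pairs hold every gene in the 3 comparisons among HCC+ EVs, HCC- EVs at 1.2 mg/mL and the blank. In the other comparisons only genes called in the main fit were included. Calls gained there are therefore not in this tally. Scaling to the total count gave 2 higher members for HCC+ and 3 for HCC- EVs at 1.2 mg/mL against the blank, 1 for HCC- EVs at 0.048 mg/mL, 1 for each comparison of HCC- EVs at 1.2 mg/mL with a lower dose, 1 lower for HCC+ against HCC- EVs at 1.2 mg/mL, 1 higher at 0.048 mg/mL, and 2 lower in the change with dose. For HCC- EVs at 1.2 mg/mL it changed the sign of CENPT (to 0.28) and MIS12 (to 0.01) against the blank. Against 0.048 mg/mL it changed that of CENPT (to 0.04) and CENPF (to 0.09). Of these values only the 0.28 of CENPT passed edgeR's test (adjusted p 0.0267).

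With GC and length trends removed, HCC- EVs at 0.048 mg/mL kept 0 lower and 0 higher calls, HCC+ against HCC- EVs at 1.2 mg/mL had 2 lower, HCC- EVs at 1.2 against 0.048 mg/mL had 1 higher, and the change with dose had 2 lower. MIS12 changed sign to 0.10 against the blank with HCC- EVs and to -0.20 between the kinds of EV, and CENPX to -0.05 at 0.048 mg/mL. Only the -0.20 passed edgeR's test (adjusted p 0.0418). The same fit with the replicate block gave 0, 0, 2, 1, 2, 0.10, -0.19 and -0.05. The replicate number was not used as a pairing in the main fit, and 20 of 63 same-numbered pairs had a residual correlation over 0.1 (-0.4513 to 0.5237). Pairs with different numbers were not compared, and pairing among some of the groups was not tested. The replicate block alone gave 1 higher for HCC+ against HCC- EVs at 0.048 mg/mL and 36, 41 and 36 calls in the 3 comparisons at 1.2 mg/mL. At 0.048 mg/mL no filter gave 3 higher, only the groups compared 10 higher and 2 lower, and DESeq2 3 and 2, beside the shares of all genes given above. Only the groups compared also gave 1 higher for HCC- EVs at 0.048 mg/mL and 2 lower in the change with dose. The causes were not tested.

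Leaving out each library gave ranges of 29 to 37 lower and 0 to 1 higher (HCC+ EVs at 1.2 mg/mL), 40 to 41 lower (HCC-), 33 to 37 higher (HCC+ against HCC-), 0 to 24 lower and 0 to 4 higher (HCC- EVs at 0.048 mg/mL), 24 to 34 higher (averaged), 24 to 31 and 23 to 32 lower (HCC+ EVs at 1.2 against 0.24 and 0.048 mg/mL), 39 to 40 lower in both for HCC- EVs with 0 to 1 higher against 0.048 mg/mL, and 26 to 34 higher and 0 to 2 lower (change with dose). It gave 0 to 0 in the other comparisons. Shares of all genes with a library left out are not reported here. Few counts (5 to 36 a library) limit the precision of MAD1L1.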
